A study of Mus musculus with 6 samples.

Results

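Usp2, which encodes a deubiquitinating enzyme, and 9 genes of the circadian clock (Per1, Per2, Per3, Cry1, Cry2, Nr1d1, Nr1d2, Dbp and Tef) were followed in cultured murine primary microglia. They are 10 of the 41079 genes in the deposited tables and were found there by their symbols. The 10 genes were chosen by symbol with earlier results of the same comparison known, among them the higher level of Usp2, so their differences between conditions are a description. Their calls in the fit over all genes are counted beside those of all genes, and nothing is supported with them. Microglia came from the brains of C57Bl/6N mice aged 1 to 3 days, were grown in flasks fed with L-929 conditioned medium, and were collected by shaking. RNA-seq was made from 3 control libraries, cultured in serum-free DMEM/F12, and 3 libraries from optimized conditions, labelled as stimulated with human TGFbeta and IL34 and with CX3CL1, 100 ng/mL each. According to the methods of the study, the optimized cultures also received cholesterol and insulin-transferrin-selenium and were grown on collagen IV, and brains of several pups were pooled in a flask. The effects of the single supplements and of the coating cannot be told apart in this design.

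In mammalian cells, the transcription factors CLOCK and BMAL1 bind E-box sequences and drive the Per, Cry, Nr1d and Dbp genes. PER and CRY proteins then inhibit CLOCK and BMAL1, the REV-ERB receptors encoded by Nr1d1 and Nr1d2 repress Bmal1, and DBP and TEF bind D-box sequences in further cycling genes. Usp2 mRNA cycles in many tissues, and its protein removes ubiquitin from other proteins. The clock time of harvest was not given in the sources used here, and each culture was sampled at a single time. A shift in the phase of the clock and a change in the level of its transcripts therefore cannot be told apart.

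The sequences around the transcription starts are shown first, since the clock factors act through short motifs in DNA, near the starts or elsewhere. Windows from 250 bases before to 50 bases after the start of the canonical transcript were read from the GRCm39 (mm39) genome, with starts from GENCODE M39. The motifs searched on both strands were the E-box CACGTG, the E'-box CACGTT, the D-box TTATGTAA, its variant TTACGTAA, the cyclic AMP response element TGACGTCA, the ROR element core TAGGTCA, to which REV-ERB receptors also bind, and the SMAD palindrome GTCTAGAC. The windows of Usp2, Per1, Per2, Per3 and Dbp are printed because these genes span the highest and the lowest difference and hold the different motifs. Capitals mark the motifs, and each sequence runs 5′ to 3′ on the strand of its gene.
Usp2 (chr9:43978014-43978313, plus strand, E-box): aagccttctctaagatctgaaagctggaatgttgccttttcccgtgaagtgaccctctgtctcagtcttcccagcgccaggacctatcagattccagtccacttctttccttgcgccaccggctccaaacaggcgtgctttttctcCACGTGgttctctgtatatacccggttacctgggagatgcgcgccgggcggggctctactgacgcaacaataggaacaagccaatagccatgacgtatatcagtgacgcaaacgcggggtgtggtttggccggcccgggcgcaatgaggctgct
Per1 (chr11:68989018-68989317, plus strand, E-box): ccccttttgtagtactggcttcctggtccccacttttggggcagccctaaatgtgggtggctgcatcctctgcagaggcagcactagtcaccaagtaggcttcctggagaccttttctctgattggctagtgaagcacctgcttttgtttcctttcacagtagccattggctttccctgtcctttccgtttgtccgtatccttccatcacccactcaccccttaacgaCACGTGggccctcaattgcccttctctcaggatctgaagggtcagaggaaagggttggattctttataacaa
Per2 (chr1:91386997-91387296, minus strand, D-box and then E'-box): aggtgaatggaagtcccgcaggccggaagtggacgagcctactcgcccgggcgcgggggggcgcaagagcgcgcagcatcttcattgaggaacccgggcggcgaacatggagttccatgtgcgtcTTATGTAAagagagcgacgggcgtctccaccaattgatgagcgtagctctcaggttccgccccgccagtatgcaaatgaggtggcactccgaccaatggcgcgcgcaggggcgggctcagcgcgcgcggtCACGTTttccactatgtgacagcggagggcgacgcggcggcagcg
Per3 (chr4:151129091-151129390, minus strand, 2 D-boxes): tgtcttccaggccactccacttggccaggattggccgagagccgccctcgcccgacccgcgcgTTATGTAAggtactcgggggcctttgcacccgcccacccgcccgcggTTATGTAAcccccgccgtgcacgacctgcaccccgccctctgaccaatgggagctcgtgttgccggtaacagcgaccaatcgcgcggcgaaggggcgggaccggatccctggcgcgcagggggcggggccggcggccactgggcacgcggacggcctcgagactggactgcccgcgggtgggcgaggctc
Dbp (chr7:45354262-45354561, plus strand, ROR element core): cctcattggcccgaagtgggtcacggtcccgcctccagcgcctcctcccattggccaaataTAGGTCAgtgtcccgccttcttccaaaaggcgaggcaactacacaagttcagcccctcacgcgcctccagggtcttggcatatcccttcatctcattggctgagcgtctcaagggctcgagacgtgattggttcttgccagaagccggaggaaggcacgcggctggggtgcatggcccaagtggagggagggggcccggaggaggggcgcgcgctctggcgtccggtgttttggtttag

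An E-box was present in the windows of 4 of the 10 genes and an E'-box in those of 4, with Cry1 holding both. Counted from the start, with negative positions before it, the E-box of Usp2 began at -104, that of Per1 at -22, that of Cry1 at -29 and that of Tef at -138. E'-boxes were found in Per2, Cry1, Cry2 and Nr1d1. Per2 and Per3 were the genes among the 10 with a D-box, and Per3 held it at -187 and at -140. Among all 20996 promoter windows of the same length, 7.93% held an E-box, 5.07% an E'-box, 0.91% a D-box and 2.47% a ROR element core. G and C bases made up 51.3% (Per1) to 72.0% (Per3) of the windows of the 10 genes, against a median of 54.7% over all windows. Nr1d2 held none of the motifs in this window, and neither did the window at a second annotated start of Usp2 (chr9:43995986-43996285). A match describes the letters only and is not a site shown to be bound. Motifs outside the windows were not searched. A window without an E-box, such as that of Dbp, does not show that the gene lacks one. Of the genes with an E-box, Usp2, Cry1 and Tef were called higher in the fit below and Per1 was not called. A link between the motifs and the differences was not tested. Usp2 has 20 distinct annotated starts, and counts per gene do not separate them.

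**Figure D1:**
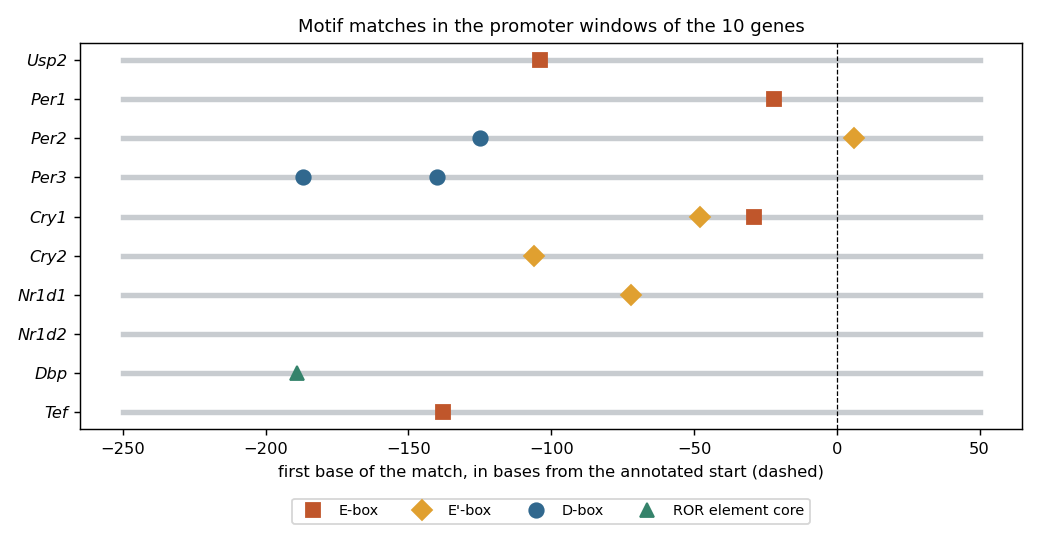
Positions of the searched motifs, in bases from the transcription start (horizontal axis, dashed line at the start), in the promoter windows of the 10 genes, 1 row per gene. Usp2 shows an E-box at -104, Per3 shows 2 D-boxes and Nr1d2 shows no motif.

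The libraries held between 20628148 and 27261839 counts, and the 10 genes had between 98 and 1389 counts in each library. Levels are given as CPM (counts scaled by library size and TMM factors), and differences as log2 fold changes (optimized against control) with their standard error (SE) from the edgeR fit over 14618 genes. Markers of microglia summed to 5879 to 5979 CPM in the control and to 10320 to 12030 CPM in the optimized libraries over 7 genes, of which 5 rose and 2 (Aif1 and Csf1r) fell in edgeR's quasi-likelihood test. The sums were 3.075 to 4.634 against 5.303 to 6.288 CPM for 5 neuronal markers, and 22.3 to 25.33 against 11.51 to 13.06 CPM for 4 astrocytic markers. In the astrocytic list Aldh1l1, a folate enzyme gene, went from 15.1 to 18.05 CPM in control libraries to 4.39 to 4.83 CPM in optimized ones, while Gfap, Aqp4 and S100b were not called in edgeR's quasi-likelihood test. Sums were 124.8 to 140.3 against 155.6 to 189.6 CPM for 5 oligodendrocytic markers, and 21.29 to 27.78 against 22.01 to 78.75 CPM for 5 fibroblast markers. The highest fibroblast sum was that of optimized library 3, with Col1a1 at 31.49 and Col1a2 at 31.635 CPM. Optimized libraries 1 and 2 held 11.648 and 8.77 CPM of Col1a1, and 13.116 and 7.195 CPM of Col1a2. None of the markers of these cell types was at 0 in all 6 libraries, although the neuronal gene Snap25 was at 0 in 4 of them, and their part in the values of the clock genes was not tested. In such bulk samples, fewer cells of a type and less RNA per cell cannot be told apart. The labels do not say that the libraries of a group came from separate cultures, whereas the study calls them biological replicates. The SDs therefore measure the spread between these libraries, and the SEs also draw on the spread of the other genes in the fit.

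Coordinates of genes refer to GRCm39 and follow GENCODE M39. Usp2 (chr9:43978264-44006924, plus strand) had the highest fold difference of the 10 genes. The 3 control libraries held 5.38, 3.997 and 4.25 CPM and the 3 optimized libraries 27.3, 27.8 and 25.5 CPM. All optimized libraries lay above all control libraries, and the counts behind them were 123, 98 and 116 against 576, 654 and 528. Mean levels were 4.54 ± 0.74 CPM for control and 26.9 ± 1.20 CPM for optimized conditions (SD over 3 libraries each), a 5.93-fold difference (log2 fold change 2.57, SE 0.13). By size of the log2 fold change, Usp2 ranked 154 of 14618 genes, counted from the highest. A predicted gene on the opposite strand, Gm39325, shares 890 exon bases with Usp2, but it held a mean of 1.7 counts per library against 349.2 for Usp2.

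The CPM patterns of 3 other genes were most like that of Usp2, measured as the Euclidean distance of centred log2 CPM over the 6 libraries. They were Fgf2, a fibroblast growth factor (distance 0.25, log2 fold change 2.57), Enc1, a kelch-repeat actin-binding protein (0.258 and 2.59), and Mlxipl, a carbohydrate-responsive transcription factor (0.299 and 2.64). Fgf2 was measured at nearly the CPM of Usp2, at 4.48 ± 0.39 against 26.5 ± 2.98 CPM (SD, n = 3 each), whereas Enc1 and Mlxipl were more abundant.

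Among the period genes, which encode the PER subunits of the repressor complex, Per2 alone was higher in optimized cultures. Per2 (chr1:91343700-91387069, minus strand) held 5.99, 5.10 and 5.56 CPM in control and 17.2, 12.6 and 16.1 CPM in optimized libraries. The groups were well apart, and their means were 5.55 ± 0.45 and 15.3 ± 2.39 CPM (SD, n = 3 each; log2 fold change 1.46, SE 0.15). Per1 (chr11:68986035-69002300, plus strand) held 33.5, 29.8 and 29.98 CPM in control and 27.9, 25.7 and 25.7 CPM in optimized libraries. Its optimized libraries lay just under the control libraries, at a log2 fold change of -0.23 (SE 0.09) that did not pass the threshold.

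Per3 (chr4:151081373-151129140, minus strand) was the gene among the 10 whose groups overlapped in CPM (43.9% of all genes tested had no overlap), with 19.4, 18.0 and 17.1 CPM in control and 22.8, 13.3 and 14.5 CPM in optimized libraries. Optimized library 1 was above every control library, while the other two lay below all of them. The log2 fold change of -0.11 (SE 0.19) became -0.39 (SE 0.11) without optimized library 1 and 0.03 (SE 0.18) without optimized library 2. The length of Per3, inferred from the deposited counts and FPKM, was 9410 bases, longer than for 89.4% of the genes. The libraries differed in a trend with this inferred length. Across 12666 genes, which are not independent replicates, the deviation of a library from its group mean correlated with gene length at r = 0.426 in optimized library 1 and -0.416 in optimized library 2. The part of this trend in the spread of Per3 was not tested.

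**Figure D2:**
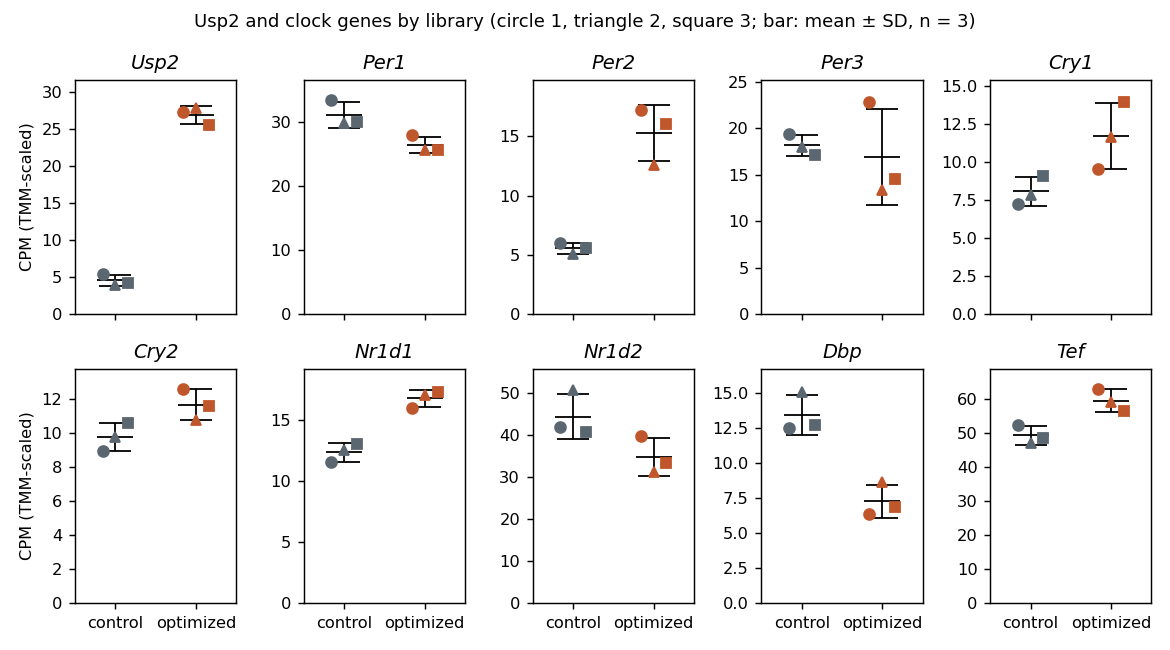
Level of each of the 10 genes in CPM (linear vertical axis from 0, 1 panel per gene) in the 3 control (grey) and 3 optimized (orange) libraries, with symbols for libraries and bars for the mean ± SD. Usp2 lies at 3.997 to 5.38 CPM in control and at 25.5 to 27.8 CPM in optimized libraries, and the groups overlap for Per3 in these TMM-scaled CPM.

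The cryptochrome genes encode the partners of the PER proteins. Cry1 (chr10:84967560-85021252, minus strand) held 7.26, 7.83 and 9.11 CPM in control and 9.56, 11.7 and 13.9 CPM in optimized libraries. The highest control and the lowest optimized library of Cry1 were close to each other, and the log2 fold change was 0.54 (SE 0.16). Cry2 (chr2:92233894-92264474, minus strand) held 8.96, 9.79 and 10.6 CPM in control and 12.6, 10.8 and 11.6 CPM in optimized libraries. Its groups were nearly in contact in CPM and overlapped in FPKM. The log2 fold change of 0.25 (SE 0.12) was 0.13 (SE 0.14) with scaling by library size alone, and Cry2 did not pass the threshold.

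Nr1d1 and Nr1d2 encode the REV-ERB receptors. Nr1d1 (chr11:98658752-98666188, minus strand), for REV-ERBα, held 11.5, 12.6 and 13.1 CPM in control and 16.004, 17.1 and 17.4 CPM in optimized libraries. It was higher in every optimized library, at a log2 fold change of 0.44 (SE 0.10). Nr1d2 (chr14:4230545-4266624, plus strand), for REV-ERBβ, held 41.9, 50.7 and 40.7 CPM in control and 39.8, 31.2 and 33.3 CPM in optimized libraries. The highest optimized library was just under the lowest control library, and the log2 fold change of -0.35 (SE 0.12) did not pass the threshold. Of the 3242 exon bases of Nr1d1, 1694 are shared with Thra, the thyroid hormone receptor α gene on the opposite strand, and the strand setting of the counting is not given in the sources used here. How reads in the shared bases were assigned to Nr1d1 and Thra is therefore not known. Thra itself had a log2 fold change of -0.09 (SE 0.12).

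Dbp and Tef encode activators that bind D-boxes. Dbp (chr7:45354512-45359627, plus strand) held 12.5, 15.05 and 12.7 CPM in control and 6.34, 8.60 and 6.87 CPM in optimized libraries. It had the lowest log2 fold change of the 10 genes, -0.88 (SE 0.15), between means of 13.4 ± 1.42 and 7.27 ± 1.18 CPM (SD over 3 libraries each). Tef (chr15:81686622-81711064, plus strand) held 52.5, 47.1 and 48.6 CPM in control and 63.2, 59.1 and 56.6 CPM in optimized libraries. In TMM-scaled CPM, Tef was higher in each optimized library, at a log2 fold change of 0.27 (SE 0.09). In FPKM its groups overlapped (up to 7.77 in control and down to 7.44 in optimized libraries), and the log2 fold change was 0.14 (SE 0.11) with scaling by library size alone. Dbp shares 539 of its 3470 exon bases with Sphk2, a sphingosine kinase gene on the opposite strand with a mean of 1824 counts per library against 246.7 for Dbp. Sphk2 had a log2 fold change of -0.25 (SE 0.10). Cry2 shares 296 exon bases with D930015M05Rik, which held a mean of 28.8 counts against 248.8 for Cry2, and the listed genes that overlap Per3 (Uts2) and Tef (Gm17597) held a mean under 1 count.

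At an adjusted p-value under 0.05 in edgeR's quasi-likelihood test, 5 of the 10 genes were higher (Usp2, Per2, Cry1, Nr1d1 and Tef), 1 was lower (Dbp) and 4 were not called, where 14.7% of all 14618 genes tested were higher, 15.2% lower and 29.8% called in either direction. Over 17 fits, with the main fit counted, Usp2, Per2 and Dbp were called in 17, Nr1d1 in 14, Cry1 in 10 and Tef in 7. Of the 4 others, Nr1d2 was called in 6, Per1 in 3, Per3 in 1 and Cry2 in 0. In TMM-scaled CPM, the libraries of the groups did not overlap for 9 of the 10 genes, and for 43.9% of all genes. In FPKM they did not overlap for 7 of the 10 (Per3, Cry2 and Tef overlapped), and for 46.9% of all genes. The median log2 fold change was 0.26 over the 10 genes and 0.008 over all genes. With scaling by library size alone, 3 of the 10 genes were higher and 3 lower, and 1513 of all genes were higher and 3168 lower, against 2142 and 2218 with TMM factors. Nothing is read from these shares, since the genes were selected on the same contrast.

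Levels between genes were compared per transcript length, as FPKM. In control cultures the order of mean FPKM ran from Tef (7.19 ± 0.52) over Dbp (4.99 ± 0.64), Nr1d2 (4.45 ± 0.67), Nr1d1 (4.22 ± 0.19), Per1 (3.69 ± 0.33), Cry2 (2.40 ± 0.13), Cry1 (2.06 ± 0.17), Per3 (2.02 ± 0.19) and Per2 (0.930 ± 0.081) to Usp2 (0.772 ± 0.137; SD, n = 3 each). Usp2 was thus the lowest of the 10, and its libraries overlapped with those of Per2. The ranges of Dbp, Nr1d2, Nr1d1 and Per1 overlapped from neighbour to neighbour, as did those of Cry1 and Per3.

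In optimized cultures the order began with Tef (7.88 ± 0.65 FPKM), Nr1d1 (5.20 ± 0.22 FPKM) and Usp2 (4.14 ± 0.18 FPKM; SD, n = 3 each), and the libraries of these genes did not overlap with each other. Usp2 stood in the 3rd place there, above Nr1d2 (3.16 ± 0.53 FPKM) without overlap. Dbp (2.44 ± 0.29 FPKM) stood between Cry2 (2.61 ± 0.31 FPKM) and Per2 (2.34 ± 0.45 FPKM), and Per3 was lowest (1.71 ± 0.58 FPKM). From Nr1d2 downwards, each gene overlapped with the next.

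Ratios of FPKM within a library do not depend on the scaling between libraries, but the trend with gene length need not cancel in them. Gene lengths inferred from the deposited counts and FPKM were 3061 bases for Nr1d1 against 10444 for Nr1d2, and 2808 for Dbp against 7178 for Tef. The part of this trend in the ratios was not tested. The ratio of Per2 to Per1 was 0.253, 0.242 and 0.262 in control and 0.87, 0.694 and 0.884 in optimized libraries, a 3.22-fold difference of geometric means without overlap. That of Nr1d1 to Nr1d2 was 0.94, 0.846 and 1.1 against 1.37, 1.87 and 1.78, a 1.74-fold difference, also without overlap. Dbp to Tef was 0.607, 0.816 and 0.669 in control and 0.257, 0.372 and 0.31 in optimized libraries. The groups did not overlap for Dbp to Tef either. How often such ratios are without overlap over all genes was not computed.

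For Cry1 to Cry2 (0.843, 0.832 and 0.896 against 0.79, 1.13 and 1.25) and for Per3 to Per1 the groups overlapped. Usp2 and Dbp had the highest and the lowest log2 fold change of the genes followed here. These genes were chosen with results of the same contrast known, so a wide gap follows from the choice of this pair. Usp2 to Dbp went from 0.197, 0.121 and 0.152 in control to 1.96, 1.48 and 1.7 in optimized libraries, an 11.1-fold difference. Usp2 was therefore under the level of Dbp in every control library and above it in every optimized library. These values describe the pair, and nothing further is read from them.

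Further clock genes were read from lists of activators, repressors, modifying enzymes and outputs. Of 36 further clock genes in the tables, 32 could be tested and 6 were higher, 2 lower and 24 not called, which is 25.0% called against 29.8% of all genes. Their median log2 fold change was 0.04. Adjusted p-values printed for genes outside the 10 come from the quasi-likelihood fit in edgeR and were corrected over all genes tested after Benjamini and Hochberg.

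In the activating limb, Bmal1, the partner of CLOCK and the main target of REV-ERB repression, had means of 9.81 ± 0.78 and 9.94 ± 1.02 CPM, control before optimized (SD, n = 3 each; log2 fold change 0.02, SE 0.13, edgeR adjusted p = 0.9419). Clock had a log2 fold change of -0.24 (SE 0.17, edgeR adjusted p = 0.3439), which became -0.47 (edgeR adjusted p = 0.0046) without optimized library 1. Npas2, a homologue of Clock, was below 1 CPM in all libraries, with a log2 fold change of 0.22 (SE 0.51, edgeR adjusted p = 0.8022). Rora, a nuclear receptor that activates Bmal1, rose by a log2 fold change of 0.55 (SE 0.18, edgeR adjusted p = 0.04646), and this call was kept in 7 of 15 alternatives. Bmal2 and Rorb had too few counts to be tested.

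Among other repressors and clock partners, Bhlhe40 and Bhlhe41, which encode the E-box binding repressors DEC1 and DEC2, rose most. Bhlhe40 went from 29.7 ± 3.40 to 116 ± 3.60 CPM (SD, n = 3 each; log2 fold change 1.97, SE 0.10, edgeR adjusted p = 5.837e-07). Bhlhe41 went from 71.2 ± 2.68 to 197 ± 6.98 CPM (SD, n = 3 each; log2 fold change 1.47, SE 0.08, edgeR adjusted p = 8.878e-07). Both hold an E-box in their own promoter windows, at -222 and -1. Ciart (CHRONO), another repressor of CLOCK and BMAL1 with 3 E-boxes in its window, had a log2 fold change of 0.22 (SE 0.19, edgeR adjusted p = 0.4191). Nfil3, which competes with DBP and TEF for D-boxes, had one of -0.04 (SE 0.13, edgeR adjusted p = 0.8685).

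Timeless and Tipin, whose mammalian proteins form a complex at replication forks, fell. Timeless went from 17.8 ± 0.54 to 9.67 ± 0.47 CPM (SD, n = 3 each; log2 fold change -0.88, SE 0.10, edgeR adjusted p = 0.0001328). Tipin had a log2 fold change of -0.64 (SE 0.17, edgeR adjusted p = 0.01941), and its call was lost without control library 2 (edgeR adjusted p = 0.0921) or control library 3 (edgeR adjusted p = 0.0511).

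Of 15 tested genes for kinases, ubiquitin ligases and a deubiquitinase that act on PER, CRY or REV-ERB proteins, 2 rose and 13 were not called, where 14.7% of all genes were higher and 29.8% called. Csnk1e, the casein kinase 1ε that phosphorylates PER proteins, went from 59.8 ± 2.78 to 117 ± 6.34 CPM (SD, n = 3 each; log2 fold change 0.96, SE 0.08, edgeR adjusted p = 1.781e-05). Of 7 tested transcripts that cycle in many tissues, Lonrf3 rose (log2 fold change 0.63, SE 0.11, edgeR adjusted p = 0.001247) and the other 6 were not called, beside the same shares of all genes.

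**Figure D3:**
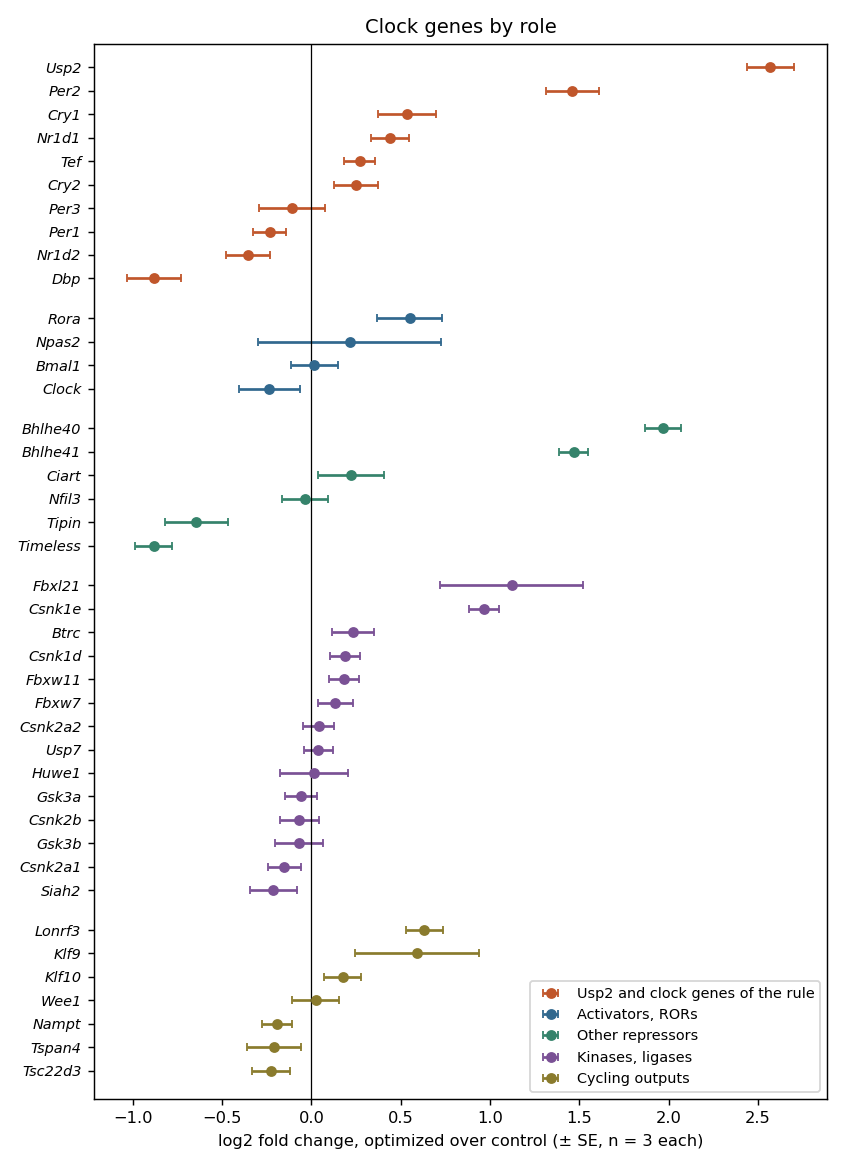
Log2 fold change, optimized against control, with bars of 1 SE (horizontal axis), for the 10 genes (orange) and for other tested clock genes, 1 row per gene and 1 colour per role. Usp2 is highest at 2.57, followed by Bhlhe40 at 1.97, while Bmal1 lies at 0.02 and Dbp and Timeless at -0.88.

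Genes known to be induced or repressed by pathways that also act on Per1, Per2 or the REV-ERB receptors were read from lists. Of 6 glucocorticoid-induced genes, 2 rose, 1 fell and 3 (Tsc22d3, Klf9 and Zbtb16) were not called in edgeR's quasi-likelihood test. Among all genes, 14.7% were higher, 15.2% lower and 29.8% called. Sgk1, a serine/threonine kinase, went from 115 ± 10.7 to 1251 ± 70.3 CPM (SD, n = 3 each; log2 fold change 3.44, SE 0.11, edgeR adjusted p = 4.117e-08). Fkbp5, a chaperone partner of the glucocorticoid receptor, rose by 1.57 (SE 0.11, edgeR adjusted p = 3.038e-06), and the phosphatase gene Dusp1 fell by 1.16 on the log2 scale (SE 0.11, edgeR adjusted p = 2.979e-05). The part of glucocorticoid signalling in these values was not tested.

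Of 6 tested genes induced by cyclic AMP and CREB, 4 fell and 2 (Nr4a1 and Nr4a2) were not called in edgeR's quasi-likelihood test, with log2 fold changes of -1.50 for Pde4b, -0.97 for Fos, -0.73 for Sik1 and -0.68 for Crem. Of all genes, 15.2% were lower and 29.8% called, and the same shares stand beside the next list. Of 7 genes that REV-ERB receptors repress, 2 rose (Il6 by 2.23 with 6 to 32 counts per library, and the receptor gene Cx3cr1 by 2.15, log2 scale), 2 fell (Mmp9 with -4.60 and Ccl2 with -2.63, log2 fold change) and Bmal1, Npas2 and Nfil3 were not called. The parts of cyclic AMP signalling and of the REV-ERB receptors in these values were not tested.

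Usp2 was set beside the other genes whose symbol is Usp and a number, most of them ubiquitin-specific proteases. Of 56 in the tables, 43 were tested and 5 were higher, 5 lower and 33 not called, which is 23.3% called against 29.8% of all genes. Their median log2 fold change was 0.04, and Usp2 ranked 1 of 44 by log2 fold change, as the selection of Usp2 used this contrast.

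The next in size were Usp30, a mitochondrial deubiquitinase (21.8 ± 0.75 to 49.4 ± 3.47 CPM, SD, n = 3 each; log2 fold change 1.18, SE 0.09, edgeR adjusted p = 8.333e-06), and Usp12 (82.4 ± 1.05 to 155 ± 1.99 CPM, SD, n = 3 each; log2 fold change 0.91, SE 0.07, edgeR adjusted p = 1.196e-05). Usp18, which removes the ubiquitin-like modifier ISG15, fell by 0.77 (SE 0.14, edgeR adjusted p = 0.002619) and Usp1, which acts in DNA repair, fell by 0.56 (SE 0.09, edgeR adjusted p = 0.001004), both on the log2 scale. Usp2 was at lower CPM in control cultures than these 4 genes.

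**Figure D4:**
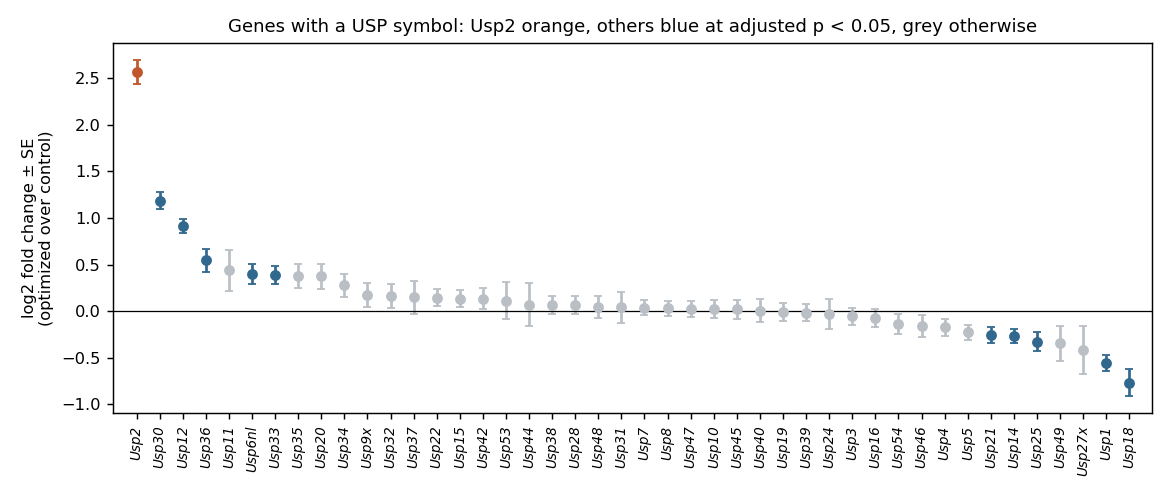
Log2 fold change, optimized against control, with bars of 1 SE (vertical axis), of the tested genes with a USP symbol in descending order (horizontal axis), with Usp2 in orange, other genes at an edgeR adjusted p under 0.05 in blue and the rest in grey. Usp2 stands at 2.57, above Usp30 at 1.18 and Usp12 at 0.91, while most others lie near 0.

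Transcripts of known substrates of the USP2 protein were also listed, although USP2 acts on proteins and not on transcripts. Of 5 tested, 3 fell and 2 (Mdm2 and Mdm4) were not called in edgeR's quasi-likelihood test, where 15.2% of all genes were lower and 29.8% called. The cyclin D1 gene Ccnd1 went from 261 ± 18.1 to 126 ± 5.48 CPM (SD, n = 3 each; log2 fold change -1.05, SE 0.09, edgeR adjusted p = 1.28e-05), against the higher Usp2 level in the same libraries. The mitotic kinase gene Aurka fell by 0.90 (SE 0.18, edgeR adjusted p = 0.003794) and the fatty acid synthase gene Fasn by 0.47 (SE 0.15, edgeR adjusted p = 0.03791) on the log2 scale. The Fasn call was lost in 4 of 6 fits without a library.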

How the data were processed

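The authors used HISAT2 (genome mm39) for alignment and featureCounts for counting reads per gene. Versions, annotation and strand setting are not given in the sources used here. They deposited raw counts and FPKM values, each for 41079 genes in 6 libraries, and FPKM served for levels between genes and for alternatives. Groups and replicate numbers follow the labels.

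The edgeR 4.0.16 package (R 4.3.3) was applied to the counts (filterByExpr, TMM factors, quasi-likelihood test, Benjamini-Hochberg adjustment over 14618 genes, threshold 0.05). The common dispersion was 0.0164, a coefficient of variation between replicates of 0.128. An SE is the log2 fold change divided by the square root of F. Scripts were tested on simulated data. Alternatives used DESeq2 1.42.0, limma 3.58.1 on log2(FPKM + pseudocount of 1 or 0.1), other filters and scalings, a replicate block and left-out libraries.

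The 10 genes and all lists were chosen with earlier results of these data known. Besides the 10, the text names every tested gene of the activating limb and of the other repressors, up to 4 called genes with the largest log2 fold change of each other list and of the USP genes, the 3 genes nearest to Usp2 with a mean of at least 5 CPM, and genes sharing exons with one of the 10. Some genes of these lists are counted but not reported here by name. Genes that were not called in a list were named after their values were seen. Promoters were read from GRCm39 with GENCODE M39 starts.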

Additional observations from a re-analysis of the deposited data

How the results depend on the processing

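Scaling by library size alone moved the median log2 fold change of all genes by -0.129 and gave 1513 higher and 3168 lower calls (2142 and 2218 with TMM factors). It left 3 of the 10 genes higher and 3 lower (5 and 1 with TMM factors), 4 lower further clock genes (2) and 2 higher USP genes (5). In the limma fits on log2 FPKM with pseudocounts of 1, 0.1 and with a mean FPKM of at least 1, higher calls among the 10 genes were 2, 2 and 3, lower further clock genes 5, 4 and 5, and higher USP genes 2, 2 and 2. The last of these fits had 1176 higher calls over all genes and 2 lower among the 10. DESeq2 and the fit without a filter on low counts also gave 2 lower among the 10.

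Correlations between same-numbered deviations were 0.273, -0.012 and 0.185, and those between unlike numbers ran from -0.294 to 0.189. These values do not settle whether the replicate numbers pair the libraries. The fit with a replicate block gave 2401 higher and 2523 lower calls over all genes, and 5 higher and 2 lower among the 10. With both libraries of number 1 left out, an alternative chosen after seeing the data, 2 of the 10 and 4 further clock genes were lower.

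Without single libraries, higher calls ranged from 1603 to 2591 and lower from 1646 to 2643 over all genes. Among the 10 they ranged from 2 to 5 higher and from 1 to 4 lower, the 4 without optimized replicate 1. The ranges were 5 to 6 and 1 to 3 in the further clock genes, and 3 to 8 and 2 to 4 in the USP genes. The log2 fold change of Per3 changed sign in 1 alternative, and those of the other 9 genes in none. Sizes moved more, from 1.54 to 2.699 for Usp2 and from 0.781 to 1.574 for Per2. The lowest values of both came from limma on log2(FPKM + 1). The causes of these shifts were not tested. Of the 10 genes, Usp2 and Per2 had 98 to 152 counts in control libraries, which limits the precision of their control levels.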
